A study of Mus musculus with 13 samples.

Results

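The genes described here lie on mouse chromosome 7 between 40 and 50 Mb (build mm10, GRCm38), around Tead2, a transcription factor gene that is left out of the set. A gene was a member if its first listed chromosome was 7, its smallest start lay from 40 Mb to under 50 Mb, and at least 4 of the 13 libraries held at least 10 counts of it. This gave 125 members of 46958 genes in the deposited table, and another 294 genes of the segment had too few counts. The count rule does not look at genotype, but the segment itself was proposed with results of these data known, so its counts below are a description and no independent support. Just inside the count rule were Slc6a16 with 206 counts in all and Tulp2 with 108 (each with 10 counts or more in 4 libraries), and just outside were Vstm2b with 87, Mybpc2 with 84, Kcnc1 with 82 and Ccdc155 with 53 (3 libraries each). Of the members, 99 had 10 counts or more in all 13 libraries, and Slc6a16 passed the rule only through the genotype in which it was high. Ppfia3 and E2f8 would also have missed the rule without their LCDD libraries. Among their control libraries, only replicate 1 of DH-LMP2A and of WT reached 10 counts (12 and 14 for Ppfia3, 13 and 10 for E2f8).

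Messenger RNA was sequenced from glomeruli, the filtering units of the kidney, isolated with magnetic beads from mice of 6 months on a mixed background of C57/BL6, 129/SV and BALB/c. The genotype labelled kFRA (LCDD), named after light chain deposition disease, had 4 libraries, the genotype labelled DH-LMP2A had 4, and wild type (WT) had 5. Each library pooled 3 mice, except WT replicates 3, 4 and 5, which came from 1 mouse each and share the same numeric code in their titles. The labels do not describe the constructs further, and so do not say whether the LCDD mice also carry DH-LMP2A or from which strain any modified allele came. Nothing beyond the labels shows that the libraries are separate replicates, so p-values measure the spread between these libraries.

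In mice of mixed strain origin, genes that lie close together on a chromosome are inherited together. Animals bred for one allele therefore tend to share the DNA around it, and strains can differ in the transcript level of a gene through variants in or near that gene. This part of chromosome 7 is gene dense and holds the kallikrein protease cluster, Siglec receptors of leukocytes, zinc finger genes, ribosomal protein genes and many housekeeping genes, next to genes best known from neurons. Tead2 itself encodes a DNA-binding partner of the Hippo pathway coactivators YAP and TAZ. No file used here reports strain variants, so which strain's DNA each library holds in this segment was not measured.

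Promoter sequences are shown for 4 members whose transcripts were higher in LCDD and that lie within the same 1064 kb stretch as Tead2. These are examples chosen with the values known, and other such members of the stretch, among them Ppfia3, are not shown. The sequences are the 250 bases upstream of the RefSeq start (GRCm38.p6), written 5′ to 3′ on the gene's strand. They come from the reference genome and not from these mice. Clec11a lies on the minus strand and its window is chr7:44306960-44307209. Zfp473, also on the minus strand, has 3 RefSeq starts, and the window of the one farthest upstream, chr7:44748618-44748867, lies inside the span the deposited table gives to the gene. The window of Cpt1c is chr7:44974852-44975101 on the minus strand, and that of Slc6a16 is chr7:45240503-45240752 on the plus strand. Capitals mark matches, on either strand, to the CCAAT box (CCAAT) and the GC box (GGGCGG).
Clec11a: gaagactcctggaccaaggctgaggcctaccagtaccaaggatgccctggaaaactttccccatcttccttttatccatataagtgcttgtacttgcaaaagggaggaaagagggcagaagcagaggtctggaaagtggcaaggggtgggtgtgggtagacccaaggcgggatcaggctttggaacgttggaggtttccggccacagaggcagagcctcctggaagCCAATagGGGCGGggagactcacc
Zfp473: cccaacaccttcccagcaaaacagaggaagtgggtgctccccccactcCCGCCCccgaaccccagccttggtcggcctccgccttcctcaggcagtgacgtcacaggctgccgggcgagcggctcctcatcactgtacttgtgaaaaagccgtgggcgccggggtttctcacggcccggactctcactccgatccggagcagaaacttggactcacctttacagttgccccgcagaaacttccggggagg
Cpt1c: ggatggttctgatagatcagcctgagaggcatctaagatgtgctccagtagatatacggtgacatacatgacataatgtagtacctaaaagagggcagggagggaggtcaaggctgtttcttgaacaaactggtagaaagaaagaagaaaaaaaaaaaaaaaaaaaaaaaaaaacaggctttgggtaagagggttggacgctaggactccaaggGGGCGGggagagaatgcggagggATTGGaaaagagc
Slc6a16: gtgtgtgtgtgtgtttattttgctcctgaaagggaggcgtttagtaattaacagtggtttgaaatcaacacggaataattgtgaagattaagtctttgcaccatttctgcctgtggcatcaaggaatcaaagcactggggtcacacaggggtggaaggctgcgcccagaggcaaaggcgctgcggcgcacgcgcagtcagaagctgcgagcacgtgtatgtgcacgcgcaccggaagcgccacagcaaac

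These windows differ in composition. G and C made up 55.6% of the Clec11a window, 63.6% of Zfp473, 44% of Cpt1c and 52.4% of Slc6a16, against a median of 52.4% over 32851 RefSeq windows of the same length. The Zfp473 window held 17 CpG pairs and Slc6a16 held 14, while Clec11a and Cpt1c held 4 each, and the median window held 6. CCAAT was present in Clec11a and Cpt1c, and in 33.85% of all windows; GGGCGG was present in Clec11a, Zfp473 and Cpt1c, and in 32.74% of all windows. None of the 4 windows held TATAAA, found in 12.37% of all windows, or CATTCC, the core letters of the MCAT element that TEAD factors bind, found in 12.64%. The Ppfia3 window, not shown, was 67.6% G and C and held 24 CpG pairs, with 3 matches each to CCAAT and GGGCGG. A match or its absence describes only the letters of its window.

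Of the 125 members, 124 entered the test (edgeR's quasi-likelihood test over 16738 genes with Benjamini-Hochberg adjustment, called at an adjusted p under 0.05), and Tulp2 did not pass the filter on low counts. In LCDD against DH-LMP2A, 8 of 124 members were called (6.45%), 7 higher in LCDD and 1 lower, beside 2% of all genes (1.3% higher and 0.693% lower) and 25 of 1132 tested genes on the rest of chromosome 7 (2.21%). In LCDD against WT, 10 members were called (8.06%), 9 higher and 1 lower, beside 1.84% of all genes (1.3% higher and 0.544% lower) and 29 genes on the rest of chromosome 7 (2.56%). The 8 members called against DH-LMP2A were also called against WT, in the same direction; the comparisons share the LCDD libraries. In DH-LMP2A against WT, edgeR called 0 members, with 12 at an unadjusted p under 0.05 (9.68%, beside 12.5% of all genes) and 1 called by DESeq2, beside 0.627% of all genes called and 7 on the rest of chromosome 7 (0.618%).

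Members lay on both sides of 0, with medians close to it. The median log2 fold change of the members was -0.07 in LCDD against DH-LMP2A, 0.01 in LCDD against WT and 0.10 in DH-LMP2A against WT, where the medians over all genes were -0.01, 0.01 and 0.00. Above 0 were 51 of the 124 members in LCDD against DH-LMP2A (41.1%, beside 49% of all genes), 65 in LCDD against WT (52.4%, beside 51.7%) and 74 in DH-LMP2A against WT (59.7%, beside 50.1%). The median size of the log2 fold change, regardless of sign, was 0.26 for the members and 0.21 for all genes in LCDD against DH-LMP2A, and 0.23 and 0.17 against WT. At an unadjusted p under 0.05 stood 28 members in each LCDD comparison (22.6%), beside 13.1% and 12% of all genes. The spread between libraries of a genotype was also close to that of other genes: the median SD of log2 CPM in LCDD was 0.305 for the members and 0.307 for all genes.

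**Figure D1:**
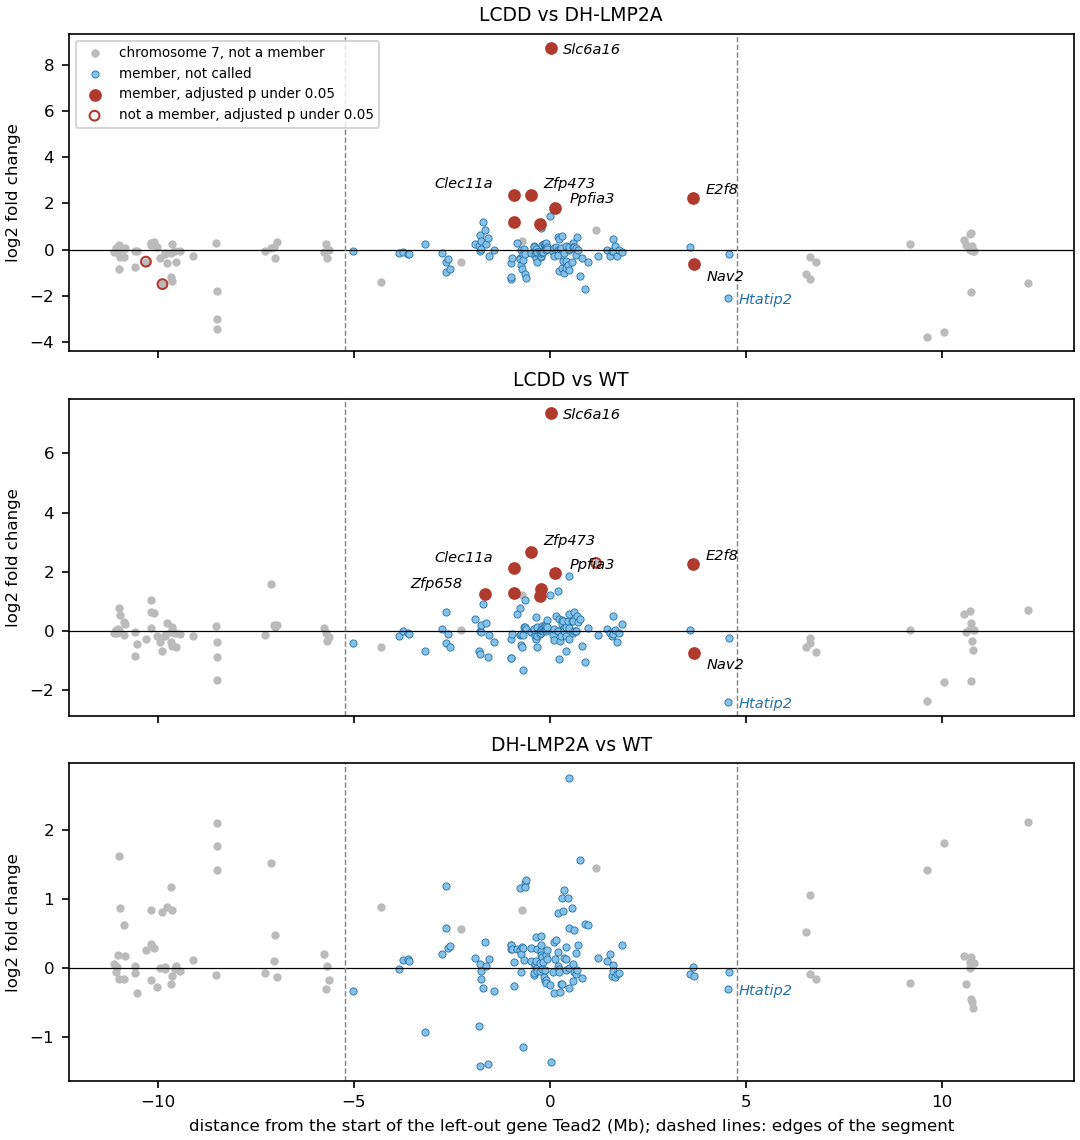
Log2 fold change (vertical axis) of chromosome 7 genes against distance in Mb from the start of Tead2 (horizontal axis), 1 panel per comparison, with the edges of the segment dashed. Called members (red) stand among uncalled neighbours (blue) near 0 in both LCDD comparisons, and no member is red in DH-LMP2A against WT; the height of Slc6a16 depends on the prior count of the fit, since its control libraries held 0 or 1 count.

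Counted by overlap, 18 of 124 members had no LCDD library within the range of DH-LMP2A (14.5%), 12 lying above and 6 below, beside 7.62% of all genes (4.74% above and 2.89% below). Against WT the same held for 14 members (11.3%), 10 above and 4 below, beside 4.59% of all genes (2.97% above and 1.63% below). For DH-LMP2A against WT it held for 5 members (4.03%), 4 above and 1 below, beside 4.97% of all genes (2.64% above and 2.33% below). The LCDD counts include Slc6a16, which became a member through its LCDD libraries alone. Without it, 17 of 123 members had no overlap in LCDD against DH-LMP2A (13.8%) and 13 in LCDD against WT (10.6%). Ppfia3 and E2f8, which needed their LCDD libraries to pass the count rule, remain in these counts.

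**Figure D2:**
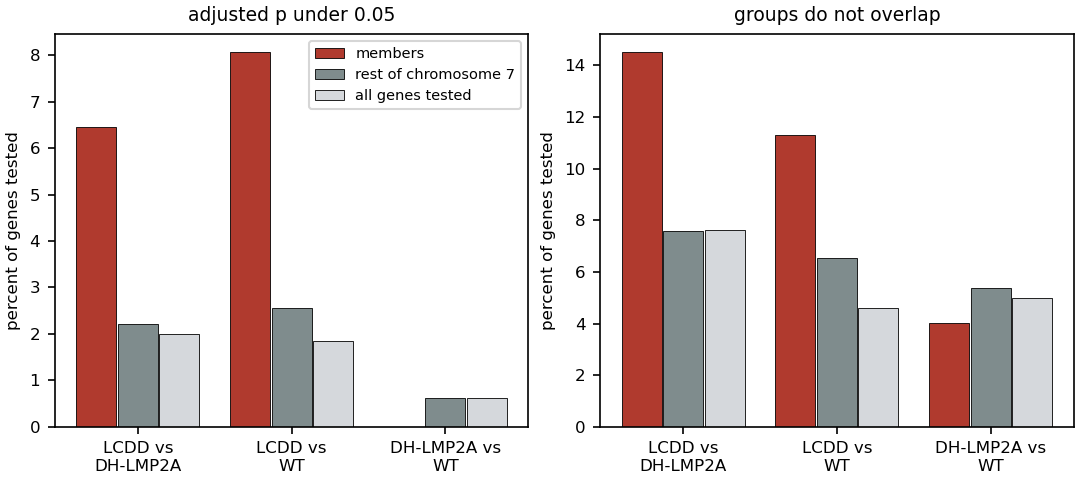
Percent of tested genes (vertical axis) called at an adjusted p under 0.05 (left) or with no overlap between the libraries of the 2 genotypes (right), for the members, the rest of chromosome 7 and all genes tested. The members stand at 6.45% and 8.06% called in the LCDD comparisons and at 0 in DH-LMP2A against WT. Slc6a16, Ppfia3 and E2f8, which passed the count rule only with their LCDD libraries, are among the members in both panels.

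Most of the called and of the tested genes lay between 44 and 46 Mb. Against DH-LMP2A, the window from 44 to 45 Mb held 4 called genes of 35 tested, that from 45 to 46 Mb held 2 of 49 and that from 48 to 49 Mb held 2 of 3, and the other windows of the segment held 0. From 44 to 46 Mb, 6 of 84 tested genes were called (7.14%), close to the 6.45% of all members. From Clec11a to Ppfia3, a stretch of 1064 kb whose bounds were chosen after the values were seen, 6 of 48 tested members were called against DH-LMP2A (beside 2% of all genes) and 7 against WT (beside 1.84%), and Tead2 lies within it. The median log2 fold change of those 48 members was -0.05 against DH-LMP2A and 0.06 against WT. E2f8 and Nav2 form a separate pair, with the lowest coordinate of E2f8 3527 kb beyond that of Ppfia3. Kcnc1, a potassium channel gene that missed the count rule, is singled out after its values were seen. It was called against WT at a log2 fold change of 2.30 (adjusted p = 0.0335) and not against DH-LMP2A. It rests on 82 counts in all, with at most 17 in a library.

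Next to Tead2 the picture changed from gene to gene. Tead2 itself (45215753 to 45233635) was higher in LCDD by 1.94 on the log2 scale against DH-LMP2A (adjusted p = 1.46e-05) and by 1.99 against WT (adjusted p = 4.30e-06), and differed by 0.05 between DH-LMP2A and WT (adjusted p = 0.913). Pih1d1, the member before it, encodes a subunit of a chaperone complex and was measured at 33.2 ± 3.49 CPM (SD, n = 4) in LCDD, 32.8 ± 3.43 (n = 4) in DH-LMP2A and 29.9 ± 1.58 (n = 5) in WT. CPM here is the count scaled to library size with TMM factors. Its log2 fold change was 0.01 ± 0.11 (SE) and 0.15 ± 0.10, with overlapping libraries.

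Cd37, a tetraspanin gene of leukocytes, follows Tead2 on the opposite strand and overlaps its end. Its libraries read 8.17, 13.1, 13.9 and 15.5 CPM in LCDD, 5.46, 3.89, 5.77 and 3.22 in DH-LMP2A, and 9.42, 7.41, 2.92, 2.82 and 4.66 in WT. All LCDD libraries lay above all DH-LMP2A libraries, whereas the range of WT overlapped that of LCDD. The log2 fold change was 1.47 ± 0.38 against DH-LMP2A (edgeR adjusted p = 0.0737) and 1.22 ± 0.35 against WT (adjusted p = 0.123). DESeq2 called both (adjusted p = 0.00827 and 0.0354). With the code in the library titles as a block, Cd37 was called against DH-LMP2A at 1.56 (adjusted p = 0.0308). The summed level of 6 leukocyte markers ranged from 31.4 to 62.9 CPM in LCDD, 24.8 to 36.9 in DH-LMP2A and 27.6 to 82.0 in WT, none was at 0, and their part in the Cd37 values was not tested. In bulk tissue, fewer cells of a type and less RNA per cell cannot be told apart.

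Slc6a16, the next gene (45241085 to 45272689), encodes an orphan member of the sodium-dependent transporter family and had nearly all of its counts in LCDD. The LCDD libraries held 33, 47, 65 and 60 counts, or 2.23 ± 0.962 CPM (SD, n = 4). All 4 DH-LMP2A libraries held 0 counts, and in WT replicate 1 held 1 count and the other 4 held 0. LCDD was at least 16.8-fold higher than DH-LMP2A, taking 3 counts per library as the floor. Against WT the ratio of summed counts was 253, with an exact 95% counting interval of 44.9 to 10034 that covers counting error only; the 2 figures are on different scales. Because the gene became a member through its LCDD counts alone, its test supports nothing: without it, 7 of 123 members were called against DH-LMP2A (5.69%) and 9 against WT (7.32%). These counts still hold Ppfia3 and E2f8, which also passed the count rule only with their LCDD libraries, so their tests add no support either. Slc6a16 falls under the mean of 1 CPM set for naming genes in full and is singled out after its values were seen, as are Ppfia3 and E2f8.

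Ppfia3, a synaptic scaffold of the liprin family, lies farther along at 45339126 to 45367019. It was low in all libraries, at 1.27, 1.54, 1.56 and 1.34 CPM in LCDD, 0.449, 0.296, 0.514 and 0.358 in DH-LMP2A and 0.120 to 0.556 in WT, with no overlap. It rose by 1.82 ± 0.37 on the log2 scale against DH-LMP2A (adjusted p = 0.0246) and by 1.94 ± 0.34 against WT (adjusted p = 0.0108). Ppfia3 met the count rule only with its LCDD libraries, so these tests add no support.

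**Figure D3:**
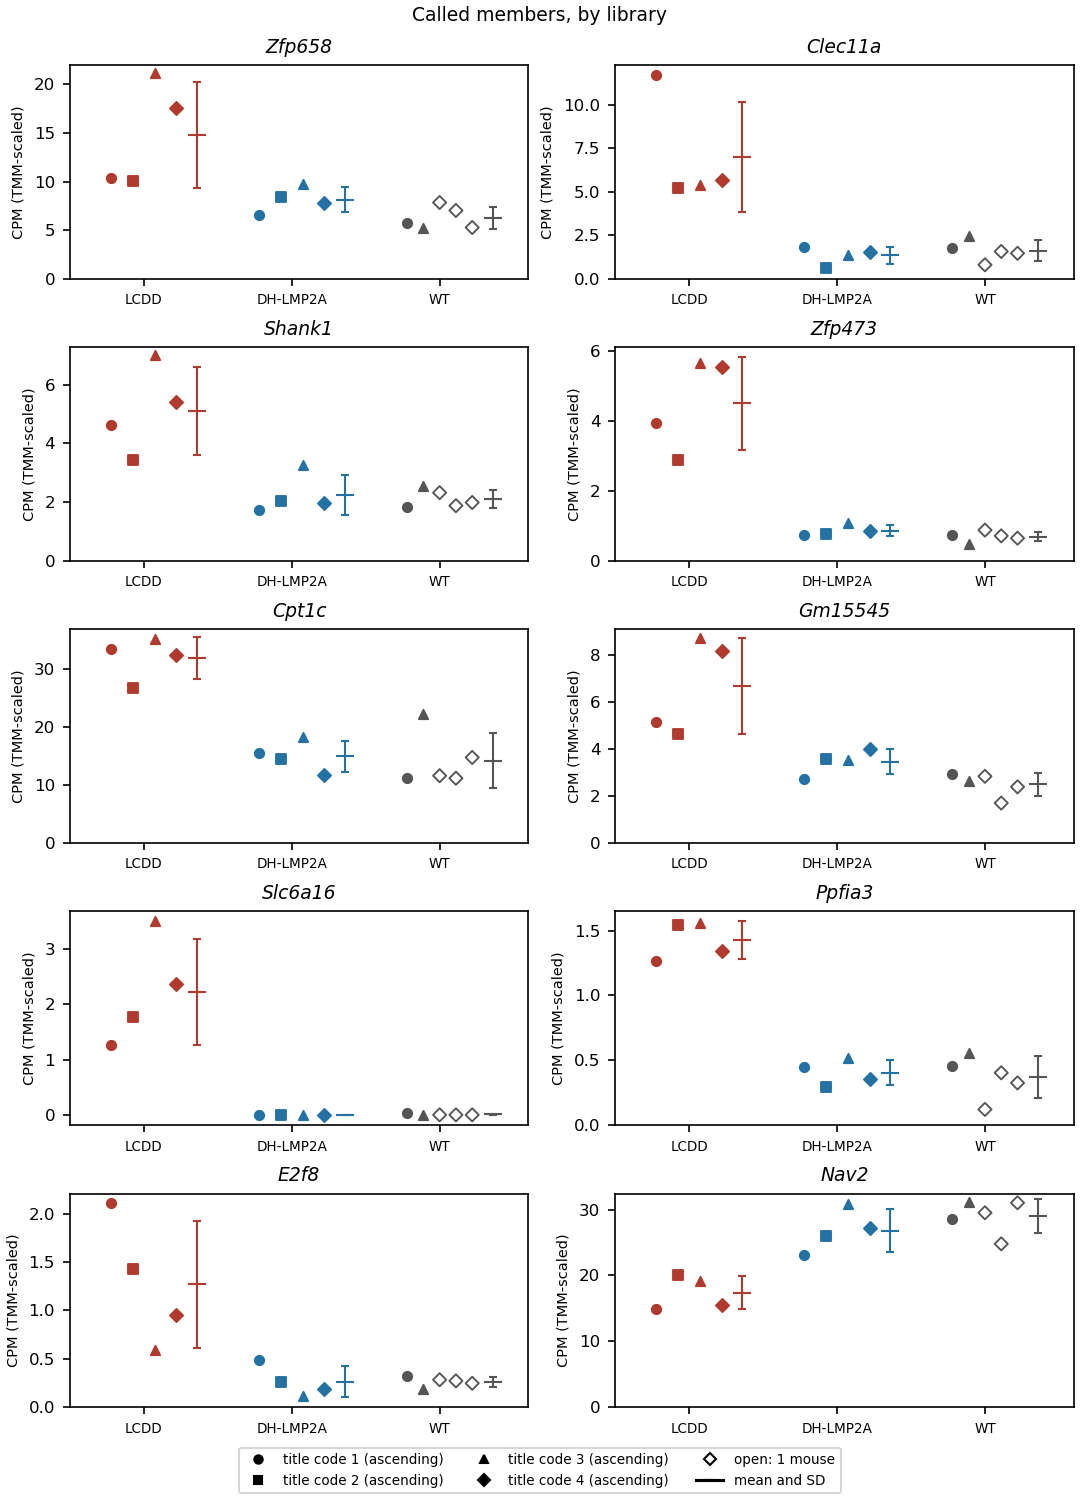
TMM-scaled CPM (vertical axis) of the 10 called members in each library, grouped by genotype, with the mean and SD beside the points; marker shape gives the title code and open markers are single mice. The 4 LCDD points of each gene lie above all other points, except for Nav2, where they lie below, and all 4 Slc6a16 points stand above control libraries at 0 or 1 count.

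Upstream of Tead2, Zfp473 and Zfp658 represented the zinc finger genes, a large and functionally mixed class often found in clusters of related copies. Zfp473 (44731481 to 44751050) read 3.95, 2.90, 5.66 and 5.56 CPM in LCDD, 0.748, 0.778, 1.08 and 0.851 in DH-LMP2A, and 0.494 to 0.881 in WT. The lowest LCDD library was above the highest control library. Its log2 fold change was 2.38 ± 0.28 against DH-LMP2A (edgeR adjusted p = 0.000853) and 2.68 ± 0.26 against WT (adjusted p = 0.000202), and it kept its call in both comparisons under all 22 alternative analyses. Exons of Vrk3, on the opposite strand, cover 2.04% of its exon length.

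Zfp658 (43562256 to 43575461) was called by edgeR against WT and not against DH-LMP2A. It read 10.4, 10.05, 21.2 and 17.6 CPM in LCDD, 6.59, 8.45, 9.76 and 7.79 in DH-LMP2A, and 5.25 to 7.85 in WT. The LCDD libraries lay above all others, replicates 3 and 4 most clearly. The log2 fold change was 1.25 ± 0.24 against WT (adjusted p = 0.0163) and 0.86 ± 0.25 against DH-LMP2A (adjusted p = 0.110), where DESeq2 called it (adjusted p = 0.0310). Of the 5 members on the zinc finger list, edgeR called 1 as higher against DH-LMP2A (beside 1.3% of all genes) and 2 against WT (beside 1.3%); Zfp141, a member the list left out, had log2 fold changes of -0.14 and 0.06. The most abundant of the list per kb of exon, Zfp715 and Zfp788, had log2 fold changes of 0.26 and -0.20 against DH-LMP2A and overlapping libraries. Related zinc finger genes can share reads, and how the authors' counting treated such reads is not given in the sources used here.

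Clec11a encodes a secreted growth factor for bone and blood progenitors. Its lowest coordinate lies 7.57 kb before that of Shank1, a postsynaptic scaffold gene. Clec11a (44302687 to 44306902) read 11.7, 5.19, 5.39 and 5.68 CPM in LCDD, 1.83, 0.630, 1.37 and 1.52 in DH-LMP2A and 0.801 to 2.47 in WT. LCDD replicate 1 stood far above the other LCDD libraries, yet each of them lay above all controls. Clec11a rose by 2.38 ± 0.41 on the log2 scale against DH-LMP2A and 2.12 ± 0.38 against WT (edgeR adjusted p = 0.0108 in both). Shank1 read 4.64, 3.43, 7.002 and 5.40 CPM in LCDD, 1.72 to 3.25 in DH-LMP2A and 1.84 to 2.53 in WT, again with no overlap. It rose by 1.19 ± 0.27 (adjusted p = 0.0395) and 1.27 ± 0.25 (adjusted p = 0.0191), but kept its call in only 9 of 22 alternative analyses against DH-LMP2A and 16 of 22 against WT.

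Cpt1c (44959373 to 44974851), the brain form of the carnitine palmitoyltransferases that handle long-chain acyl groups, was the most abundant of the members that rose. It read 33.3, 26.7, 35.1 and 32.3 CPM in LCDD, 15.4, 14.4, 18.2 and 11.7 in DH-LMP2A, and 11.3, 22.2, 11.6, 11.1 and 14.7 in WT. WT replicate 2 came nearest to the LCDD libraries without reaching them. The log2 fold change was 1.09 ± 0.22 against DH-LMP2A (adjusted p = 0.0245) and 1.17 ± 0.21 against WT (adjusted p = 0.0108). Gm15545, annotated as an antisense RNA, has its lowest coordinate 27.5 kb beyond that of Cpt1c. It read 5.18, 4.67, 8.73 and 8.20 CPM in LCDD, 2.73 to 4.03 in DH-LMP2A and 1.70 to 2.94 in WT. edgeR called it against WT at 1.41 ± 0.24 (adjusted p = 0.00886) and not against DH-LMP2A at 0.94 ± 0.25 (adjusted p = 0.0841), where DESeq2 called it (adjusted p = 0.0143). Exons of Bcl2l12 on the other strand cover 13.01% of its exon length, and whether counting used the strand is not given in the sources used here.

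The lowest coordinates of E2f8 and Nav2 lie 42.3 kb apart near 48.9 Mb, and the 2 genes moved in opposite directions. E2f8 is an atypical E2F repressor expressed in dividing cells. It read 2.11, 1.43, 0.592 and 0.947 CPM in LCDD, 0.486, 0.259, 0.114 and 0.179 in DH-LMP2A, and 0.185 to 0.324 in WT, so that all LCDD libraries lay above the rest. The log2 fold change was 2.23 ± 0.46 against DH-LMP2A (adjusted p = 0.0276) and 2.25 ± 0.43 against WT (adjusted p = 0.0166). E2f8 met the count rule only with its LCDD libraries, so these tests add no support. Mki67, a proliferation marker, ranged from 23.4 to 35.8 CPM in LCDD, 3.37 to 6.67 in DH-LMP2A and 3.21 to 10.3 in WT, and its part in the E2f8 values was not tested.

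Nav2, a cytoskeleton-binding protein first known from neurons (48908716 to 49610090), was the called member that fell. It read 15.0, 19.99, 19.1 and 15.5 CPM in LCDD, 23.1, 25.97, 30.9 and 27.2 in DH-LMP2A, and 28.5, 31.1, 29.5, 24.8 and 31.03 in WT. The highest LCDD library was below the lowest control. The log2 fold change was -0.62 ± 0.13 against DH-LMP2A (adjusted p = 0.0303) and -0.74 ± 0.13 against WT (adjusted p = 0.00886). In DH-LMP2A against WT, the 10 members called against WT had log2 fold changes between -0.26 and 0.47, except Slc6a16, whose libraries held 0 or 1 count.

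The library titles carry a numeric code with 4 values, whose meaning the labels do not state, and libraries with the same code deviated together on average. Within each of the 4 codes, LCDD minus DH-LMP2A had the same sign for each of the 8 members called in that comparison. That sign was fixed in advance and adds no support, since the LCDD libraries of these members did not overlap DH-LMP2A. Zfp473 ran from 1.79 to 2.59 on the log2 CPM scale, Cpt1c from 0.89 to 1.46, and Nav2 from -0.81 to -0.38. With the code as a block, 17 members were called against DH-LMP2A (13.7%), beside 6.1% of all genes and 67 on the rest of chromosome 7 (5.92%). These included the 8 above and added Cd37 and Emp3 as higher, and 2410002F23Rik, Josd2, Pold1, Fuz, Ftl1, Nomo1 and Abcc8 as lower. Against WT the block gave 12 members (9.68%), beside 3.2% of all genes, adding Ftl1 at -1.32 (adjusted p = 0.0229) and Nomo1 at -0.48 (adjusted p = 0.0220). In DH-LMP2A against WT it gave 0 members, beside 3.36% of all genes and 40 on the rest of chromosome 7.

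DESeq2 called more genes in each comparison: 18 members beside 4.85% of all genes in LCDD against DH-LMP2A, 15 beside 4.34% in LCDD against WT, and 1, Dbp, beside 2.74% in DH-LMP2A against WT. Without the 3 single-mouse WT libraries, 1 member was called against WT, Zfp473, beside 0.312% of all genes. Against DH-LMP2A, leaving out 1 library moved the count between 3 and 9 members: it was 4 without LCDD replicate 1, 5 without LCDD replicate 4 or DH-LMP2A replicate 3, and 3 without DH-LMP2A replicate 2 or 4. Clec11a and Zfp473 were called against DH-LMP2A in each of these, and so was Slc6a16, whose test supports nothing as stated above. Over the 22 alternatives, the calls against DH-LMP2A and WT held in 18 and 20 for Cpt1c, 18 and 20 for Ppfia3, 15 and 15 for E2f8, and 14 and 20 for Nav2. With a sex marker (Xist) as covariate, Clec11a, Zfp473 and Slc6a16 were the 3 members called against WT. Xist ranged from 0.485 to 999.96 CPM over the LCDD libraries and from 557 to 1654 CPM over the WT libraries. The median of Xist was 304 CPM in LCDD, 444 in DH-LMP2A and 1026 in WT. Since the marker varied partly with genotype, this fit cannot fully separate them, and the part of sex in the calls was not tested.

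Htatip2 (49759106 to 49773999), near the distal edge of the segment, is described after its values were seen. It encodes a short-chain dehydrogenase-like protein studied as a metastasis suppressor. LCDD replicates 1 and 2 held 149 and 148 counts, at 5.72 and 5.57 CPM, while replicates 3 and 4 held 1 count each. DH-LMP2A held 392, 295, 219 and 240 counts, at 10.7 to 14.7 CPM, and WT held 296 to 448, at 12.3 to 19.1 CPM. All 4 LCDD libraries lay below all others, and the group itself was split between an intermediate level and almost no reads. The fitted log2 fold change was -2.08 ± 0.88 against DH-LMP2A (edgeR adjusted p = 0.324) and -2.39 ± 0.87 against WT (adjusted p = 0.238), which did not pass the test.

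The members nearest the edges did not share this split. Prmt3 (49778346 to 49858265), an arginine methyltransferase gene just beyond Htatip2, read 18.2, 15.6, 14.7 and 13.5 CPM in LCDD, 16.0 to 21.1 in DH-LMP2A and 15.9 to 20.2 in WT. Its log2 fold changes were -0.19 ± 0.13 and -0.24 ± 0.13, with overlapping libraries. Gm6851, a processed pseudogene at the proximal edge, stayed between 0.259 and 0.741 CPM in all 13 libraries.

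**Figure D4:**
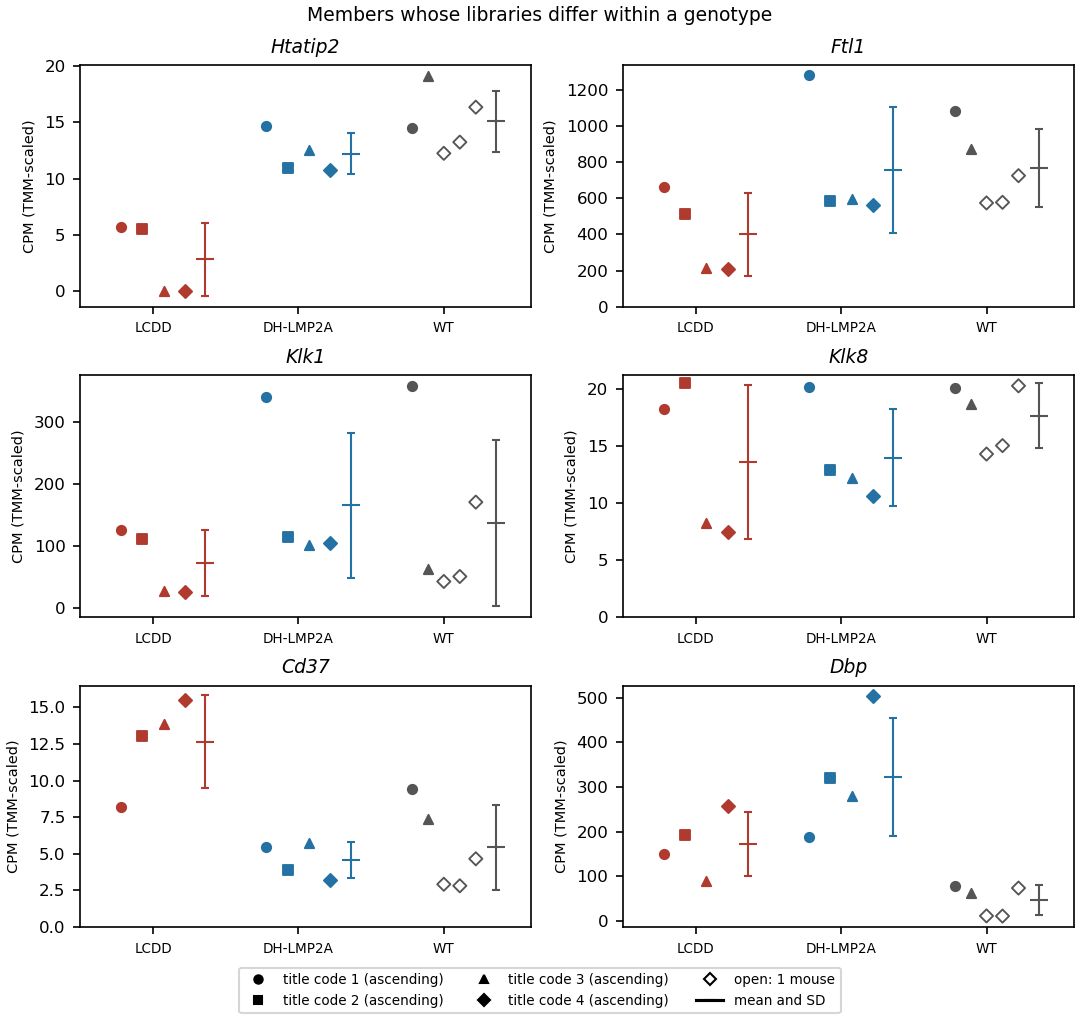
TMM-scaled CPM (vertical axis) in each library for 6 members with a wide spread within a genotype, grouped and marked as in the plot of called members. LCDD replicates 3 and 4 of Htatip2 lie at 0.0539 and 0.0394 CPM, and Ftl1, Klk1 and Klk8 are also lower in those 2 libraries than in LCDD replicates 1 and 2.

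Ftl1, the ferritin light chain that stores iron, was the most abundant member at a mean of 651 CPM. It read 665, 516, 213 and 207 CPM in LCDD, 1281, 588, 594 and 566 in DH-LMP2A, and 1083, 875, 574, 578 and 725 in WT. LCDD overlapped both control groups through replicate 1. The log2 fold changes of -0.92 ± 0.40 and -0.94 ± 0.39 were called with the block and, against WT, with a tubule marker covariate, and in none of the other analyses run. Reads of a near-identical copy on another chromosome may be divided between the genes: Ftl2-ps was listed at 109 to 114 CPM in LCDD and at most 0.124 CPM in all other libraries. Summed with it, ferritin light chain reads ran from 321 to 777 CPM in LCDD, 566 to 1281 in DH-LMP2A and 575 to 1083 in WT.

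Of the 26 kallikrein genes of the segment, which encode secreted serine proteases, 3 were members and edgeR called 0 in any comparison. Klk1, the tissue kallikrein made by the distal renal tubule, read 126, 111, 26.3 and 25.3 CPM in LCDD, 340, 115, 102 and 104 in DH-LMP2A, and 358, 62.6, 42.2, 50.2 and 171 in WT. Its spread within each genotype exceeded the differences between genotypes, at -1.20 ± 0.75 and -0.92 ± 0.72. Klk8 overlapped as well, at -0.04 ± 0.32 and -0.37 ± 0.30. The summed level of 5 loop and distal tubule markers ranged from 265 to 1272 CPM in LCDD, 455 to 1570 in DH-LMP2A and 189 to 1846 in WT, with none at 0. With a tubule marker covariate, Klk1 was called as lower in LCDD than in WT, at -1.56 ± 0.30 (adjusted p = 0.0174), and not against DH-LMP2A, at -0.89 ± 0.29 (adjusted p = 0.0829). Kallikrein paralogues can share reads, so these levels are uncertain.

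Dbp, a clock-controlled transcription factor, was the member with the largest difference between DH-LMP2A and WT. It read 187, 321, 279 and 503 CPM in DH-LMP2A, 78.3, 62.0, 11.7, 11.3 and 74.0 in WT, and 150, 194, 89.5 and 259 in LCDD. Both genotypes lay above all WT libraries. The log2 fold change was 2.76 ± 0.58 in DH-LMP2A against WT (edgeR adjusted p = 0.0528) and 1.86 ± 0.56 in LCDD against WT (adjusted p = 0.142); DESeq2 called both, with adjusted p = 8.98e-05 and 0.0223.

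Among the functional groups of the segment, taken from lists written with earlier results known, most members did not pass edgeR's test without the block. It called none of the 10 listed immune genes, although Cd37 was called by DESeq2 and with the block and Cd33 by DESeq2; Fcgrt, the neonatal Fc receptor chain, was at 107 ± 34.1 CPM in LCDD (SD, n = 4), 92.1 ± 33.6 in DH-LMP2A (n = 4) and 94.0 ± 21.3 in WT (n = 5), and Irf3, an interferon regulator, was at 90.8 ± 10.5, 111 ± 19.2 and 87.9 ± 15.1. It called none of the 4 listed ribosomal and translation genes: Rpl13a had log2 fold changes of 0.28 ± 0.22 and 0.06 ± 0.20 in the LCDD comparisons. It called none of the 11 genes on the metabolic enzyme list, which does not hold Cpt1c and on which Ftl1 was called with the block. Ldha, the lactate dehydrogenase of glycolysis, differed by -0.08 ± 0.24 and -0.12 ± 0.23.

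In edgeR without the block, Slc6a16 was called among the 6 listed channel and transport genes, while the cation channel Trpm4 (45303155 to 45333780) differed by -0.09 ± 0.19 and -0.15 ± 0.18 and Tmem143 by -0.21 ± 0.15 and 0.00 ± 0.15. Of 19 listed genes of transcription, chromatin and replication, E2f8 was called, and Ptov1 differed by 0.01 ± 0.20 and 0.46 ± 0.19. Of 11 listed and tested genes of the cytoskeleton and vascular signalling, Shank1 and Ppfia3 were called higher and Nav2 lower in both comparisons, while the small GTPase Rras differed by 0.19 ± 0.12 and 0.18 ± 0.12 and the retrieval receptor Kdelr1 by 0.08 ± 0.10 and 0.00 ± 0.10. edgeR called none of the 8 listed cell death and stress genes: the pore-forming protein Bax differed by 0.46 ± 0.22 and 0.40 ± 0.20. Emp3, a tetraspan membrane protein, read 78.2, 71.9, 68.6 and 75.2 CPM in LCDD, 43.5 to 55.7 in DH-LMP2A and 44.2 to 68.9 in WT, with log2 fold changes of 0.53 ± 0.14 (adjusted p = 0.0692) and 0.50 ± 0.13 (adjusted p = 0.0741) in edgeR; DESeq2 called it in both comparisons (adjusted p = 0.0149 and 0.0209), and the block against DH-LMP2A (adjusted p = 0.0415).

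The median log2 fold change of each list in LCDD against DH-LMP2A was -1.20 for kallikreins, 0.19 for immune genes and 0.26 for the 5 listed zinc finger genes. The zinc finger list leaves out Zfp141, at -0.14. Members without a Zfp symbol were not screened for zinc fingers. Among these, the neighbours AI987944, AW146154, 2610021A01Rik, 9830147E19Rik and Gm5595 stood at -0.14, -0.10, -0.20, -0.40 and -0.85. The median of this list therefore depends on which genes it holds, and it does not describe all zinc finger genes of the segment. The list median was 0.23 for ribosomal genes, -0.16 for metabolic enzymes and -0.15 for channels, beside -0.01 over all genes. It was -0.05 for transcription, 0.01 for cell death and 0.16 for the cytoskeleton list. Against WT the list medians ran from -0.92 for kallikreins to 0.40 for zinc finger genes, beside 0.01 over all genes.

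Library totals ran from 16687509 to 30587890 counts, of which the members took 0.454% to 0.695%. Glomerular identity was visible in all groups: the summed level of 6 podocyte markers ranged from 6729 to 29234 CPM in LCDD, 15119 to 29778 in DH-LMP2A and 13811 to 30445 in WT. The summed level of 7 proximal tubule markers ranged from 279 to 942 CPM in LCDD (median 570), 295 to 1851 in DH-LMP2A (median 935) and 78.6 to 1764 in WT (median 130). None of the markers of the 7 cell types examined was at 0 or called in any comparison. This does not show that cell composition was equal between genotypes.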

How the data were processed

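RNA of bead-isolated glomeruli was sequenced in 13 libraries (TruSeq Stranded mRNA kit, paired ends, per the labels' protocols). The authors deposited raw read counts per gene. The submitters' processing notes name STAR 2.4.0a, featureCounts, Subread 1.5.0-p3 and DESeq2, and the builds mm10 and GRCm38. The annotation and the handling of strand and of reads matching several places are not given in the sources used here. All 13 count columns matched the title of a single sample.

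Replicates are numbered within each genotype. The deposited counts went into edgeR 4.0.16 (R 4.3.3). Low genes were removed with filterByExpr (grouping by genotype, smallest count 10), which left 16738 genes for the test and removed 30220. Libraries were scaled by TMM, and a single quasi-likelihood fit of all 13 libraries had 1 coefficient per genotype. Adjusted p is by the Benjamini-Hochberg method over all genes tested. SE was taken as the absolute log2 fold change over the root of the F statistic. The test was checked on simulated data. CPM is TMM-scaled, and 2 prior counts were added for log2 CPM. No molecular identifiers were used, so the floor of 3 counts and the counting interval cover counting error only. Chi-square per degree of freedom between libraries of a genotype ran from 12.6 to 233.9, so none looked like a repeat deposit. Alternatives were DESeq2 1.42.0, other filters and scaling, covariates, a block and left-out libraries.

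The title code, not defined in the labels, was taken as a block. Deviations from genotype means of libraries sharing a code correlated at 0.153 to 0.593 for LCDD with DH-LMP2A (4 pairs), 0.127 to 0.400 for LCDD with WT (3) and 0.160 to 0.492 for DH-LMP2A with WT (3). Pairs with different codes had means of -0.139, -0.0919 and -0.127 and reached 0.524, 0.477 and 0.282.

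The members, gene lists and tests were chosen with earlier results of these data known. Named genes are the called members (in full from a mean of 1 CPM), the 2 most abundant per kb of exon of each of 9 lists, the neighbours of Tead2 and the members nearest the edges; 1 of them is not reported here. Coordinates are those of the deposited table, and 121 members matched GENCODE M21 by symbol with overlapping spans. Promoters were found for 97 members in RefSeq GRCm38.p6.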

Additional observations from a re-analysis of the deposited data

Results flagged for a closer look

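Libraries of each genotype were compared with one another for 34 members, or 102 groups, and 5 groups held a library farther from the rest than Dixon's 95% limit, where chance gives about 5.1. Clec11a in LCDD replicate 1 stood at 3.56 log2 CPM, where the other LCDD libraries reached at most 2.53. Ftl1 in DH-LMP2A replicate 1 stood at 10.32, above 9.14 to 9.21. Klk1 in the same library stood at 8.41, above 6.67 to 6.85. Slc6a16 in WT replicate 1 stood at -3.10 through a single count, where the other WT libraries held 0 and stood at -3.57. Zfp715 in WT replicate 2 stood at 5.76, below 6.63 to 6.95.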

How the results depend on the processing

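For LCDD against DH-LMP2A, members called numbered 18 with DESeq2, 17 with the replicate block and 13 with a tubule marker covariate, against 51, 67 and 70 on the rest of chromosome 7 and 812, 1021 and 1084 of all genes; the latter fell to 213 with only the 2 genotypes in the fit. Leaving out 1 library gave 3 to 9 members, 12 to 37 on the rest of chromosome 7 and 113 to 484 of all genes. For LCDD against WT, members numbered 3 with a sex marker covariate and 1 without the single-mouse WT libraries. The rest of chromosome 7 gave 62 with DESeq2, 19 with 2 genotypes, 55 with the block, 13 with the sex covariate and 5 without single mice; all genes gave 726, 185, 536, 124 and 54. Leaving out 1 library gave 7 to 12, 17 to 40 and 159 to 441. For DH-LMP2A against WT, DESeq2, the unfiltered table and the tubule covariate each called 1 member, Dbp. The rest of chromosome 7 gave 28 with DESeq2, 4 with 2 genotypes, 40 with the block, 44 with the tubule covariate, 2 with the sex covariate and 3 without single mice; all genes gave 458 with DESeq2, 562 with the block, 755 and 44 with the covariates and 69 without single mice. Leaving out 1 library gave 0 to 2, 1 to 23 and 29 to 407, the highest each without WT replicate 1. Members with no overlap numbered 30 and 15 against WT without single mice, for LCDD and DH-LMP2A, and with 1 library left out 19 to 34, 14 to 21 and 5 to 15 in the 3 comparisons. The share of all genes with no overlap was not computed for these settings. Fewer libraries leave less room for overlap in any gene, so these numbers say nothing particular to the members. The cause of these moves was not tested, apart from fewer libraries where some are left out. No called direction reversed. Among single genes, 64 values lost and 31 gained a call. Members as low as Slc6a16, Ppfia3 and E2f8, with means under 1 CPM, rest on few counts.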
